A study of Bos taurus with 8 samples.

Results

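The annexins are a family of proteins that bind the inner face of membranes when calcium rises. In skeletal muscle, several of them gather at tears of the plasma membrane, where they take part in sealing it, and ANXA1 and ANXA5 are also known from work on the fusion of myoblasts. Annexins pair with small S100 proteins, and the pair of ANXA2 with S100A10 holds plasminogen and its activator at the cell surface. The members were 9 genes chosen by name (ANXA1 to ANXA8 and ANXA11). Through the RefSeq accessions of the 21475 probes of the array, 7 of them were matched, each to 1 probe. Most accessions had no symbol, so further probes of these genes may have gone unmatched. ANXA1 and ANXA11 were not analysed here.

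RNA came from primary cultures of semitendinosus muscle cells of Limousin (LIM), Hereford (HER), and Holstein-Friesian (HF) bulls, 4 per breed, all slaughtered at one common age. LIM and HER are beef breeds, and HF is a dairy breed and the reference. All cultures were untreated and frozen while proliferating, at 80% confluence. Each of 8 two-colour arrays carried 1 beef culture and 1 HF culture, with 4 arrays of LIM against HF (LIM in Cy5) and 4 of HER against HF (HER in Cy3). The labels call the arrays biological replicates and do not give the HF bull of each array. As 4 HF bulls served 8 arrays, HF bulls recurred among the arrays, and both comparisons may use the same HF cultures. The fits and tests treat the 8 ratios as independent. Each comparison lay on its own slide and in its own dye orientation. Therefore, breed, slide, and dye cannot be told apart between LIM and HER, whereas a constant dye bias cancels in the mean of both comparisons (the mean beef effect).

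In a channel, 68.8% to 85.2% of the probes were well above background, and no spot was saturated. All arrays of a comparison correlated positively with each other across probes. LIM replicate 4 stood apart, with the lowest weight (0.299) when limma estimated a weight for each array, and annexin calls that changed without it are given with and without it. Primary cultures of muscle can also hold other cells. Of the markers of myogenic cells, 6 of 7 were measured, and all 6 were higher in the mean beef effect, as were 4 of 4 tested genes of differentiating muscle. Of 9 measured fibroblast markers, 6 were higher and 2 lower, the latter being PDGFRA (log2 mean beef effect -1.42) and TCF21 (-1.13). DCN, counted among the 6, was higher on its brighter probe (1.63), but its other probe had the opposite sign (-0.35). The summed fibroblast marker brightness was 363890 to 788543 in LIM and 279729 to 545962 in HER, against 63593 to 227791 and 55356 to 155595 in HF on the same arrays. For myogenic markers it was 46427 to 122012 in LIM and 33656 to 96238 in HER, against 16856 to 59083 and 11339 to 39027 in HF. Such a sum follows the brightest probes of a list and does not give the share of a cell type. Neither of 2 endothelial markers passed the test, CD68 of the 2 tested leukocyte markers was higher, 1 of 2 tested epithelial markers was lower, and EPCAM of that list was above background in no channel. Several of these markers thus differed between beef and HF cultures, as several annexins did, and their part in the annexin results was not tested. In RNA from whole cultures, a change in the share of a cell type and a change in RNA per cell cannot be told apart.

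Of the 7 measured annexins, 4 were higher and 1 was lower in the cultures of beef breeds when both comparisons were averaged. ANXA3 was higher in both comparisons, by a factor of 3.11 in LIM and 2.76 in HER. ANXA2, ANXA4, and ANXA6 were higher in HER, ANXA5 was higher in LIM, and ANXA8 was lower in LIM, where HF exceeded LIM 3.49-fold. ANXA7 passed the test in no comparison. A gene was called when limma gave a Benjamini-Hochberg adjusted p of at most 0.05 over 17622 tested probes together with a fold of at least 1.3.

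By this rule, 3 of 7 annexins were called in LIM, where 34.4% of all tested probes were called (16.1% higher and 18.3% lower). In HER, 4 of 7 were called, beside 24.4% of all probes (10.4% higher and 14% lower). In the mean beef effect, 5 of 7 were called (4 higher and 1 lower), beside 38.1% of all probes (17.7% higher and 20.4% lower). By limma at an unadjusted p of at most 0.05 with the same fold, 5 annexins passed in LIM beside 41.6% of all probes, 6 in HER beside 34.8%, and 5 in the mean beef effect beside 41%. The methods' t-test at the same unadjusted threshold passed 2 annexins in LIM, where it passed 5070 probes, and 5 in HER, where it passed 4822. The median log2 ratio of the 7 members was 0.69 in LIM, 0.99 in HER, and 0.88 in the mean beef effect, whereas the medians over all tested probes were -0.01, -0.06, and -0.04. Calls were common in these data, and the counts of annexins called are read against that background.

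**Figure D1:**
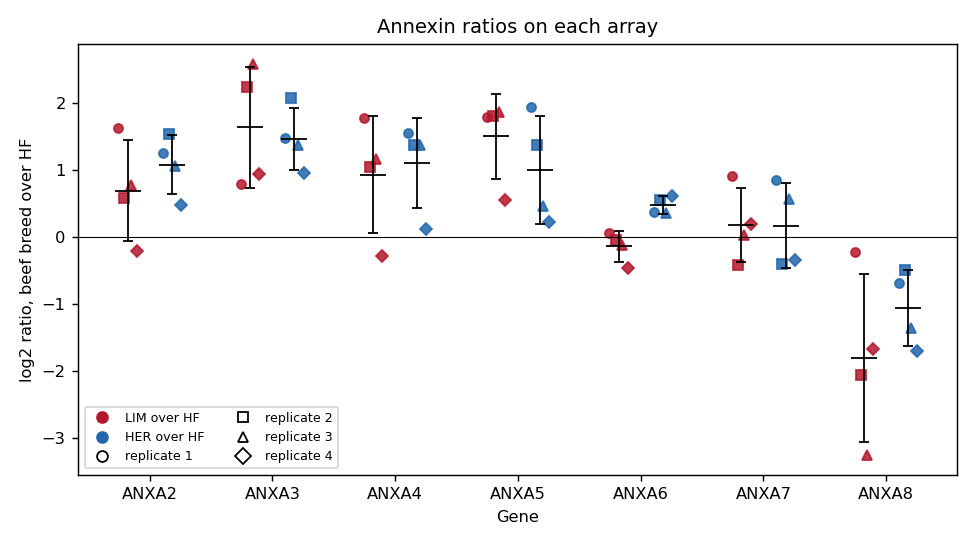
Log2 ratio of beef breed over HF (y axis) for the 7 measured annexins (x axis) on each of 8 arrays, red for LIM and blue for HER. The mean and SD of 4 arrays are in black. Each replicate number has a symbol, and the numbers were not taken to pair LIM with HER arrays. ANXA3 lay above 0 and ANXA8 below 0 on all 8 arrays, and the LIM and HER points of ANXA6 did not overlap.

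All 7 probes were well above background in all 16 channels, so every member passed the filter for dim probes, and none of their spots was marked as an outlier. Each probe was spotted 2 times, and the median difference between the spots of a probe was at most 0.0345 on the log2 scale, below the SD between arrays of every member. Brightness, the processed signal of a channel, is not comparable between probes and was not scaled between arrays.

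ANXA3 (RefSeq NM_001035325) had the highest mean beef effect of the 7 members. Its log2 ratios were 0.79, 2.23, 2.58, and 0.94 in LIM replicates 1 to 4 and 1.47, 2.07, 1.37, and 0.95 in HER replicates 1 to 4. Every array was above 0, and the LIM and HER ranges overlapped. The mean was 1.64 ± 0.90 in LIM (SD, n = 4, limma adjusted p = 0.00533) and 1.46 ± 0.46 in HER (SD, n = 4, limma adjusted p = 0.0146). The mean beef effect was 1.55 (95% interval 1.04 to 2.06, limma adjusted p = 0.000908). Brightness was 19992 to 30701 in LIM against 4783 to 13006 in HF on the same arrays, and 7589 to 22739 in HER against 2945 to 8341 in HF.

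ANXA5 (NM_001040477) binds phosphatidylserine and is widely used as a stain for it on dying cells. Its log2 ratios in LIM replicates 1 to 4 were 1.79, 1.80, 1.87, and 0.55, with 3 arrays nearly equal and replicate 4 below them. In HER replicates 1 to 4 they were 1.94, 1.37, 0.45, and 0.22, all above 0 but spread widely. ANXA5 was higher in LIM by 1.5 ± 0.64 (SD, n = 4, limma adjusted p = 0.00793), and the value was 1.82 without LIM replicate 4. In HER it was 0.99 ± 0.80 (SD, n = 4), and the limma adjusted p of 0.0506 did not pass the threshold. It passed under 8 of 23 other settings, among them without LIM replicate 4 (limma adjusted p = 0.0274), and the adjusted p ranged from 0.0235 to 0.245 over all 23. Over both comparisons the mean was 1.25 (95% interval 0.73 to 1.76, limma adjusted p = 0.00254).

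ANXA2 (NM_174716) is the annexin that forms a complex with S100A10. The log2 ratios were 1.62, 0.58, 0.77, and -0.20 in LIM replicates 1 to 4 and 1.25, 1.53, 1.06, and 0.48 in HER replicates 1 to 4. Only LIM replicate 4 lay below 0. ANXA2 was higher in HER by 1.08 ± 0.44 (SD, n = 4, limma adjusted p = 0.0243). In LIM the mean was 0.69 ± 0.75 (SD, n = 4, limma adjusted p = 0.0804), and without LIM replicate 4 it was 0.99 and passed the test (limma adjusted p = 0.0183), whereas without LIM replicate 1 it was 0.38 (limma adjusted p = 0.286). The mean beef effect was 0.88 (95% interval 0.44 to 1.33, limma adjusted p = 0.00628). This call was lost when normexp background correction with the local background as measured was used (0.68, limma adjusted p = 0.0908).

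ANXA4 (NM_001001440) had the same order of the 4 LIM arrays as ANXA2. This order was not particular to these annexins. The markers COL1A1, COL1A2, COL3A1, MYF5, and ITGA7 had it too, whereas CDH15 and S100A10 did not. The log2 ratios of ANXA4 were 1.78, 1.05, 1.16, and -0.29 in LIM replicates 1 to 4 and 1.55, 1.38, 1.37, and 0.11 in HER replicates 1 to 4. On each slide, replicate 4 was the lowest array. ANXA4 was higher in HER by 1.10 ± 0.67 (SD, n = 4, limma adjusted p = 0.0449). This call was lost under 8 of 23 other settings, among them no filter on dim probes (limma adjusted p = 0.0679). The adjusted p ranged from 0.00692 to 0.262 over all 23. In LIM the mean was 0.93 ± 0.87 (SD, n = 4, limma adjusted p = 0.0625), and without LIM replicate 4 it was 1.33 (limma adjusted p = 0.0104), whereas without LIM replicate 1 it was 0.64 (limma adjusted p = 0.22). Averaged over LIM and HER, the ratio was 1.01 (95% interval 0.47 to 1.56, limma adjusted p = 0.00884).

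ANXA6 (NM_001103224) is an annexin with a doubled core that takes part in muscle membrane repair. It had small ratios with little spread. They were 0.06, -0.05, -0.12, and -0.47 in LIM replicates 1 to 4, and 0.38, 0.56, 0.35, and 0.61 in HER replicates 1 to 4. The LIM and HER arrays did not overlap. ANXA6 was higher in HER by 0.47 ± 0.13 (SD, n = 4, limma adjusted p = 0.0215), a fold of 1.39, whereas in LIM the mean was -0.14 ± 0.23 (SD, n = 4, limma adjusted p = 0.361). LIM minus HER was -0.62 (95% interval -0.99 to -0.24), with an unadjusted limma p of 0.00493 and an adjusted p of 0.161. At that unadjusted threshold, 14.1% of all probes passed. The mean beef effect, in which a constant dye bias cancels, was 0.17 (95% interval -0.02 to 0.35, limma adjusted p = 0.13).

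ANXA7 (NM_001075991) had arrays on both sides of 0. Its log2 ratios were 0.91, -0.42, 0.03, and 0.19 in LIM replicates 1 to 4 and 0.85, -0.40, 0.56, and -0.34 in HER replicates 1 to 4. The mean beef effect was 0.17 (limma adjusted p = 0.47), and its 95% interval of -0.26 to 0.60 leaves room for a moderate difference.

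ANXA8 was the only member called lower in beef cultures, in LIM and in the mean beef effect. Its probe carries the accession NM_174241, which the RefSeq table (assembly ARS-UCD2.0) lists under the symbol ANXA8L1 with ANXA8 as a synonym, so near-identical copies may not be separated. The log2 ratios were -0.23, -2.05, -3.25, and -1.68 in LIM replicates 1 to 4 and -0.69, -0.49, -1.35, and -1.70 in HER replicates 1 to 4. All 8 arrays were below 0, with a wide spread in LIM. ANXA8 was lower in LIM by a mean log2 ratio of -1.80 ± 1.25 (SD, n = 4, limma adjusted p = 0.0117), and in HER the mean was -1.06 ± 0.57 (SD, n = 4, limma adjusted p = 0.0946). The LIM call was lost under 2 of 23 other settings, and ANXA8 passed in HER under 4 of 23. By the methods' t-test at the unadjusted threshold, ANXA8 passed in HER but not in LIM. The mean beef effect was -1.43 (95% interval -2.11 to -0.75, limma adjusted p = 0.00486), which is 2.69-fold higher in HF. The brightness ran from 1588 to 8175 over the LIM cultures, against 9563 to 19839 in HF on the same arrays, and from 3139 to 6929 in HER against 5982 to 11461 in HF.

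**Figure D2:**
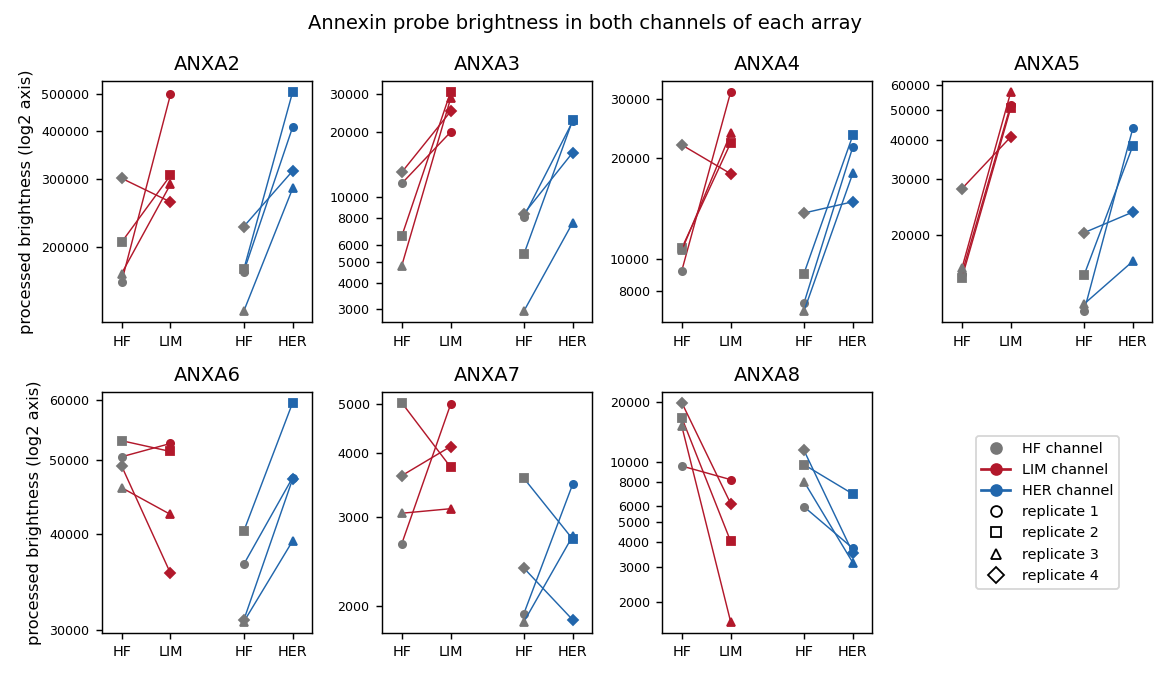
Processed brightness (log2 axis) of the 7 annexin probes, with the HF and the beef channel of each array joined by a line, LIM arrays in red and HER arrays in blue, and HF points in grey. For ANXA8 all 8 lines fall from HF to the beef breed, and for ANXA3 all 8 rise.

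Over the 8 arrays, an exact two-sided sign-flip test of the mean ratio gave p = 0.00781 for ANXA3, ANXA5, and ANXA8, the smallest p that 8 arrays allow. The same exact test gave 0.0156 for ANXA2, 0.0234 for ANXA4, 0.266 for ANXA6, and 0.391 for ANXA7. It treats the 8 ratios as independent, although HF bulls recurred among the arrays. Its p, and the limma p and intervals of the mean beef effect, may therefore overstate the evidence. With 4 arrays the smallest possible exact p is 0.13, so single comparisons rest on the fit across all probes. LIM minus HER was called for 0 of 7 annexins by limma, beside 0.233% of all probes. ANXA6 alone passed at the unadjusted p. The intervals of this difference were wide for the other members, from -2.09 to 0.61 for ANXA8 and from -0.52 to 1.53 for ANXA5.

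**Figure D3:**
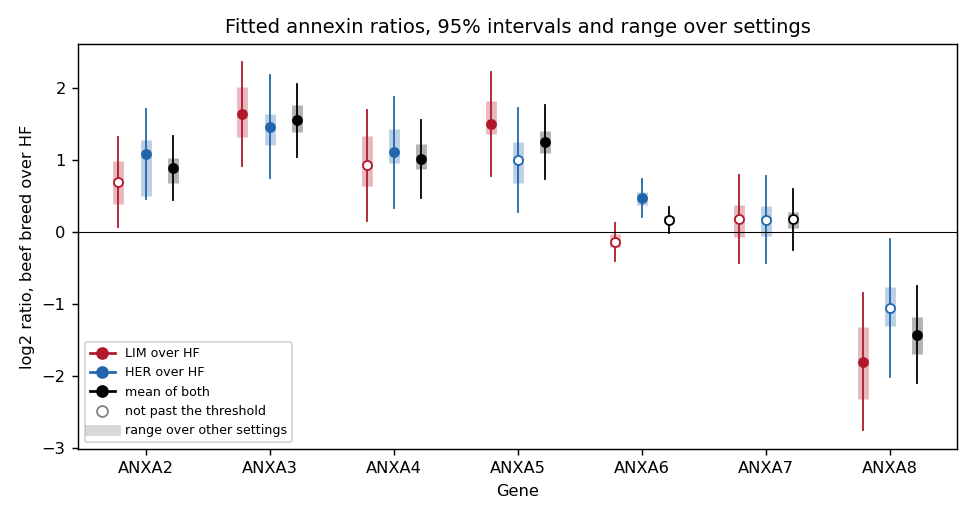
Fitted log2 ratio of beef breed over HF (y axis) for each annexin (x axis) in LIM (red), HER (blue), and the mean of both (black), with 95% intervals as thin lines, the range over other processing settings as pale bars, and open points where the threshold was not passed. ANXA2, ANXA3, ANXA4, ANXA5, and ANXA8 were called in the mean, where the intervals are narrower.

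The HER calls were the least stable. Without HER replicate 1 or without HER replicate 2, 0 annexins were called in HER, and without HER replicate 3 there were 2, ANXA3 and ANXA6. Without LIM replicate 4, 5 annexins were called in LIM, beside 7010 probes, against 6056 with all arrays. The mean beef effect kept a count of 5 annexins whichever array was left out, beside 5855 to 7458 probes. In HER, the counts of all probes also fell without HER replicate 1, 2, or 3, to 1576, 1527, and 2667, against 4302 with all arrays. In LIM, the counts did not always move together. With 1 array left out, the probes ranged from 3796 to 7010, and the annexins from 3 to 5. Without HER replicate 4, for example, 4 annexins were called in LIM beside 5745 probes.

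Of 6 listed genes of S100 proteins, which pair with annexins, 3 were measured. All 3 transcripts were higher in LIM, 1 in HER, and 3 in the mean beef effect, where 16.1%, 10.4%, and 17.7% of all tested probes were called higher. S100A10, the partner of ANXA2, had log2 ratios of 1.09, 0.94, 0.76, and 0.46 in LIM replicates 1 to 4 and 0.91, 1.47, 0.73, and 0.00 in HER replicates 1 to 4. It was higher in LIM by 0.81 ± 0.27 (SD, n = 4, limma adjusted p = 0.02) and in HER by 0.78 ± 0.61 (SD, n = 4, limma adjusted p = 0.0326). HER replicate 4 was the lowest HER array for ANXA2 and for S100A10. The same held for other listed genes, among them MYF5, CDH15, ITGA7, and COL1A1, though not for MYOG or DES. The log2 ratios of all tested probes also had a smaller SD on this array (0.65) than on the other HER arrays (0.81 to 0.92). S100A11, a partner of ANXA1, was higher in LIM by 0.80 ± 0.63 (SD, n = 4, limma adjusted p = 0.0243), and its mean in HER was 0.49 ± 0.28 (SD, n = 4, limma adjusted p = 0.137). S100A4 was higher in LIM by 1.45 ± 0.53 (SD, n = 4, limma adjusted p = 0.0148), and its mean in HER was 1.07 ± 1.02 (SD, n = 4, limma adjusted p = 0.0567).

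Of 18 listed genes of plasma membrane repair, 10 were tested. In LIM 5 were higher, in HER 3, in the mean beef effect 6, and none was lower, beside 16.1%, 10.4%, and 17.7% of all tested probes called higher. Without MYOF, whose 2 probes had opposite signs, 4 of 9 were higher in LIM, 3 in HER, and 5 in the mean beef effect. Dysferlin (DYSF), the calcium sensor of muscle membrane repair, was higher by 1.75 ± 0.82 in LIM (SD, n = 4, limma adjusted p = 0.00859) and by 1.49 ± 0.91 in HER (SD, n = 4, limma adjusted p = 0.0238). CAV3, the caveolin of muscle, was higher by 1.29 ± 1.02 in LIM and 1.45 ± 0.34 in HER. CAPNS1, the small calpain subunit, was higher by 1.06 ± 0.74 in LIM and 1.07 ± 0.36 in HER. MYOF, a relative of dysferlin, was higher in LIM on its brighter probe (0.98 ± 0.48), but its other probe had the opposite sign (-0.26 ± 0.45), so its direction is uncertain. The median of the tested repair genes was 0.40 in the mean beef effect, beside -0.04 over all probes.

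**Figure D4:**
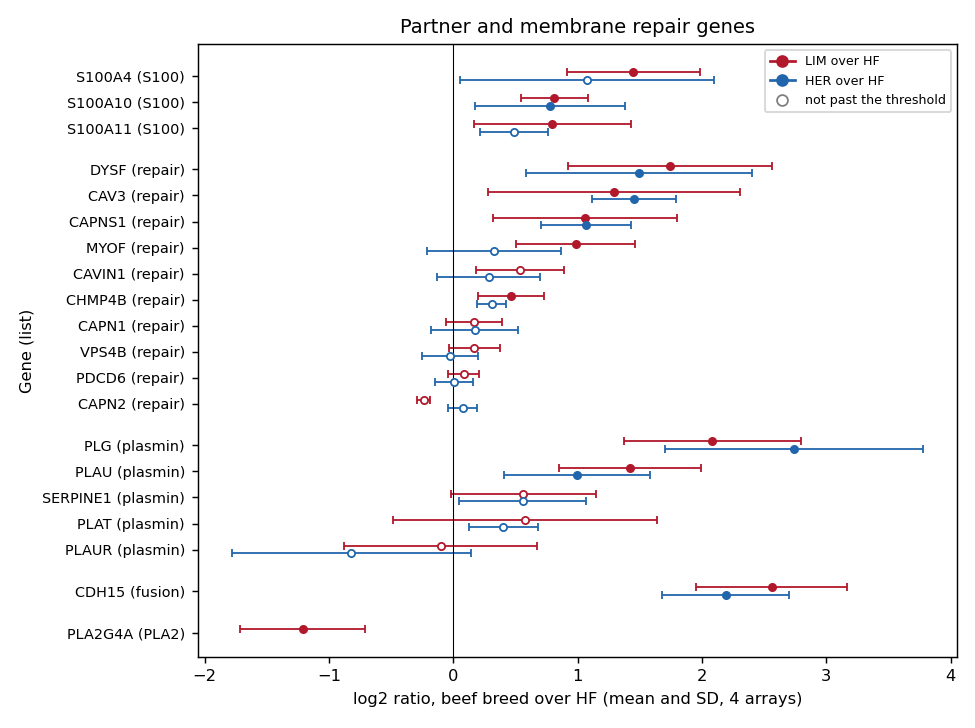
Mean log2 ratio of beef breed over HF with SD over 4 arrays (x axis) for tested genes of the lists around the annexins (y axis, list in brackets), LIM in red and HER in blue, with open points where the threshold was not passed. A comparison in which a channel was above background on no array is not drawn. DYSF, CAV3, CAPNS1, S100A10, PLG, PLAU, and CDH15 were called in both comparisons, and PLA2G4A lay below 0 in LIM.

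All 5 listed genes of the plasmin system were tested, and 2 were higher in LIM and 2 in HER, beside 16.1% and 10.4% of all tested probes. PLAU, the urokinase activator of plasminogen, was higher by 1.42 ± 0.57 in LIM and 1.00 ± 0.59 in HER. The probe of PLG, plasminogen itself, was higher by 2.08 ± 0.71 in LIM and 2.74 ± 1.04 in HER, but was above background in 2 of 4 HF channels on the LIM arrays and 3 of 4 on the HER arrays. Of 12 listed genes of phosphatidylserine exposure and myoblast fusion, 1 was measured. This was CDH15, the cadherin of myoblasts and also one of the myogenic markers, which was higher by 2.56 ± 0.61 in LIM and 2.19 ± 0.51 in HER. PLA2G4A, the cytosolic phospholipase that annexin 1 is known to restrain, was lower in LIM by a mean of -1.21 ± 0.50 (SD, n = 4, limma adjusted p = 0.0128), with its second probe at -2.05 ± 0.95. It was well above background in 2 of 4 LIM channels and in 3 of 4 HF channels on the same arrays. On the HER arrays it was well above background in 0 of 4 HER channels, against 4 of 4 HF channels. As the HER side was not detected, no ratio is given there.

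Among the remaining annexins, ANXA9 was above background in the 4 LIM channels alone and was called in no comparison, and ANXA10 was above background in no channel. ANXA13 was not analysed here. The genes with the pattern nearest to ANXA3, by the root mean square difference of log2 ratios over 8 arrays among 6760 other named genes (uncharacterised LOC symbols left out), were DHRS3 (0.41), TUFT1 (0.46), and CD247 (0.46). For ANXA8 they were TAP (0.73, above background in 11 of 16 channels), SPON2 (0.75), and ID1 (0.78), at larger distances than for ANXA3.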

How the data were processed

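The authors deposited the output of Feature Extraction 10.7.3.1 for each array, with the processed intensity of both channels and their log10 ratio (Cy5 over Cy3), which the software had already corrected for background and dye. The deposited series table holds the same log10 ratio. From this ratio, log2 beef breed over HF was computed, with the sign turned where the beef breed was in Cy3. Spots of a probe were averaged, and control spots and marked spots were left out. A probe was tested if at least 4 of 16 channels were well above background, which held for 17622 of 21475 probes. All 8 arrays were fitted together with limma 3.58.1 in R 4.3.3 (lmFit, eBayes), each comparison having its own mean. The steps were tested on simulated data.

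Names came from the RefSeq accession of each probe (7793 of 20693 accessions had a symbol). Coordinates were left out, because the array was designed on a different assembly from that of the table. The brightest probe stood for a gene with several. The members, gene lists, and tests were chosen with earlier results of these data known. All members were named, and of each list the genes called in LIM or HER, up to 4 by mean beef effect, with S100A10, S100A11, and DYSF always named. Alternatives covered background, scaling, filter, test, array weights, a replicate block, and leaving out each array. The number of arrays limits the precision.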

Additional observations from a re-analysis of the deposited data

Results flagged for a closer look

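In 14 groups of 4 arrays (7 annexins in each comparison), 2 had an array far from the other three, where about 1 in 20 groups would by chance. For ANXA5 in LIM, replicate 4 was the lowest array, and its gap to the next one took up 0.939 of the range of the group. For ANXA4 in HER, replicate 4 was again the lowest, and its gap to the next array took up 0.874 of the range. The cause was not tested.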

How the results depend on the processing

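In the mean beef effect, 153 of 154 annexin values under the alternatives kept their direction and side of the threshold, the exception being ANXA2 under normexp with the local background as measured. That setting called 0 probes and 0 annexins in HER, 3291 probes in the mean beef effect, and 0 in LIM minus HER. The methods' t-test with adjusted p called 1003 probes and 0 annexins in LIM and 2 probes and 0 annexins in HER. By unadjusted limma p, 5 annexins passed in LIM, and 2480 probes and 1 annexin in LIM minus HER. Array weights gave 5 annexins and 7586 probes in LIM and 224 probes in LIM minus HER. The latter count, 41 as reported, was 1 with outlying backgrounds replaced, 1 with no background correction, 12 with scaling between arrays, 76 with no filter on dim probes, and 0 with probes above background in all 16 channels. The cause of these shifts was not tested.

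Leaving out 1 array gave 3796 to 7010 probes and 3 to 5 annexins in LIM, 1527 to 5437 probes and 0 to 5 annexins in HER, and 1 to 14 probes in LIM minus HER. LIM fell to 3796 probes without LIM replicate 3, and HER to 1576, 1527, and 2667 probes without HER replicates 1, 2, and 3.

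With the replicate number as a block, 5 annexins and 6357 probes were called in LIM and 0 probes in LIM minus HER. In HER with this block, ANXA6 lost its call (limma adjusted p = 0.0504) and ANXA5 gained a call (limma adjusted p = 0.024). Deviations of arrays with the same number correlated at -0.24, 0.13, 0.30, and 0.54, so the numbers were not taken to pair the arrays. Pairing through a shared HF bull was not tested.

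No value that changed sign was called, either as reported or under the alternative. LIM minus HER of ANXA2 went from -0.39 to 0.38 under normexp as measured. That of ANXA3 became -0.0915 when scaled, and that of ANXA4 0.0305 with array weights. For ANXA7 it became -0.0016 without background correction, -0.0339 when centred, and -0.0363 with array weights. Without 1 array, LIM minus HER ranged from -0.14 to 0.45 for ANXA3, -0.51 to 0.23 for ANXA4, and -0.24 to 0.24 for ANXA7. ANXA7 ranged from -0.0671 to 0.38 in LIM and -0.0585 to 0.36 in HER. Averaging the probes of a gene changed no annexin, as each was matched to 1 probe.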
